A study of Saccharomyces cerevisiae with 30 samples.

Results

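Precursors of the small ribosomal subunit (pre-40S) from budding yeast (Saccharomyces cerevisiae) that carry the S15_YRR mutant of ribosomal protein S15 were set against mature 40S subunits, to describe where along 18S rRNA the mutant precursor differed from the finished particle. The pre-40S particles had been isolated by means of TAP-tagged Rio2, a kinase and assembly factor, so they hold only particles that still bind Rio2; how the mature 40S was obtained, and from which strain, is not given in the sources used here. Cells were grown in YPD to mid-log phase, and treated samples received 1% dimethyl sulfate (DMS) at 30 °C for 5 min. DMS methylates the pairing face of unpaired A and C, and reverse transcription writes the methylated base into the read as a mutation (DMS-MaPseq). The groups were S15_YRR pre-40S treated with DMS (3 replicates), mature 40S treated with DMS (3 replicates), untreated S15_YRR pre-40S (3 replicates) and untreated mature 40S (3 replicates), which makes 12 of the 30 libraries of the series. The design text calls the replicates biological; no wild-type precursor entered any comparison.

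The nucleotides described were the A and C of 18S covered by an effective depth of 1000 reads or more in each of the 12 libraries. There were 811 of these (470 A and 341 C) among 831 A and C in the 1800 positions of 18S. The 20 others fell below that depth, among them A1189, C1190 and C1192 beside the modified U1191 and A1781 and A1782 near the 3′ end. Of the 811, 151 (108 A and 43 C) had a mean DMS mutation rate at least 2 times the mean untreated rate over the libraries of both groups and were tested. The other 660 were not, and they are counted as not tested rather than as equal. Positions are counted from the 5′ end of 18S, the RNA encoded by the RDN18 genes of the rDNA repeat, and no genome coordinates were used here.

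In yeast the last steps of 40S maturation take place in the cytoplasm. The 20S pre-rRNA still carries a part of internal transcribed spacer 1 (ITS1) behind the 18S 3′ end, and assembly factors such as Rio2 occupy sites that tRNA and mRNA use in the finished subunit. S15, known also as uS19 and encoded by RPS15, sits on the head of the subunit, and Rio2 binds below the head near helix 31 (h31) and the P site. The neck, helix 28, joins the head to the body and runs into helix 44 (h44), whose upper end holds the decoding site. U1191 in the h31 loop is converted to a hypermodified base, and its last group is added late, by Tsr3.

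The libraries were of similar depth, with a median effective depth over 18S of 6361 to 7315 reads in the S15_YRR libraries and 5777 to 8036 in the mature 40S libraries, and between 47894 and 139566 mutations each. Read depth over ITS1 relative to 18S was 0.456 to 0.558 in S15_YRR DMS libraries and 0.474 to 0.541 in the untreated ones, against 0.00234 to 0.00497 and 0.00283 to 0.0128 in mature 40S. Every S15_YRR library thus held spacer, and the mature libraries held little of it. Mature 40S replicate 1 stood apart. Its untreated profile correlated with the other 5 at r = 0.43 to 0.464 over 1749 positions, whereas pairs among the other 5 had r = 0.904 to 0.945. Its mean untreated rate at U was 0.355% against 1.33% and 1.37% in mature replicates 2 and 3. The DMS profile of that replicate also stood apart. It had r = 0.743 to 0.8 with the other 5 over 811 nucleotides, against 0.858 to 0.938 among those 5. Results are therefore also given without that replicate. A rate averages over all particles of a library, so fewer affected particles and a weaker effect per particle cannot be told apart.

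The stretches in which most of the differing nucleotides lay are printed here 5′ to 3′ as in the profiles, with capitals marking the nucleotides whose DMS rate differed between the groups, so that the sites can be placed in their surroundings. The loop of helix 24 (h24) on the platform, both strands of the neck with the start of h44, the h31 loop and a stretch of the head after it are shown. Small letters are nucleotides that were not called or not tested, so they do not mark equal rates. Among those not tested, the fit without a signal filter called A1184 lower in S15_YRR. It called A1194, A1196, A1202, C1216 and A1230 higher.
h24 loop, C990 to C1010: cgaagaugAucagAuaccguc
5′ strand of the neck, A1138 to C1158: aAggaauugACggaagggcac
h31, A1184 to A1202: auuugacucAaCaCgggga
head, C1215 to U1250: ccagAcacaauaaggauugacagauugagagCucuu
3′ strand of the neck and start of h44, C1620 to C1644: cugcccuuuguaCAcAccgCCcguc
Between the strands of the neck, the longest run of letters that can pair (Watson-Crick or G with U) was 8 base pairs long, joining positions 1150 to 1157 with 1621 to 1628. Above it, the letters of A1147 and U1630, of C1148 and G1629, of G1146 and C1632 and of U1145 and A1633 were also complementary. No nucleotide of the long run passed the signal filter in either strand, and the capitals stand at its open end.

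Of the 151 tested nucleotides, 26 differed between S15_YRR pre-40S and mature 40S (17.2%; edgeR quasi-likelihood test, Benjamini-Hochberg adjusted p under 0.05), of which 20 had a higher rate (13.2%) and 6 a lower rate (3.97%) in S15_YRR. An unadjusted p under 0.05 was reached by 37. All log2 changes below are S15_YRR over mature 40S, on mutation counts with effective depth and a library scale as the offset. The head (U1145 to A1633) had 12 of its 36 tested nucleotides called (33.3%), and the rest of 18S had 14 of 115 (12.2%). These shares cover only nucleotides that passed the signal filter, 8 in the head and 17 elsewhere through S15_YRR alone, and the difference between them was not tested. Within the head, the first part (to G1264) held 7 calls among 11 tested nucleotides, the middle part (to G1445) 2 among 15, and the last part 3 among 10. The 5′ domain (to A470) held 3 calls among 42, the stretch from there to the head 8 among 57, and the 3′ minor domain after the head 3 among 16. Called were 16 of 108 A (14.8%) and 10 of 43 C (23.3%). Without mature 40S replicate 1 there were 29 calls (19.2%), and these included 25 of the 26. Without a library scale, 22 calls were higher and 3 lower in S15_YRR. Most of the 20 nucleotides called higher reached the 2 times signal ratio in S15_YRR alone, so the filter favoured that direction. With no signal filter, 24 of the 811 nucleotides were called higher and 11 lower in S15_YRR.

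**Figure D1:**
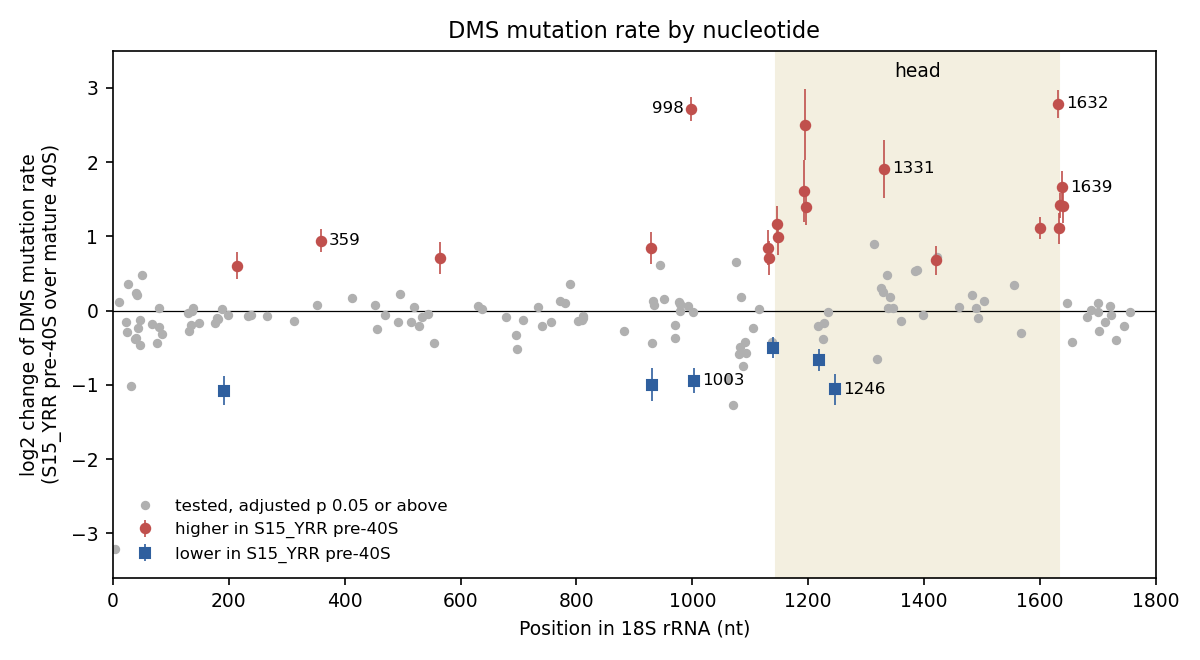
The log2 change of the DMS mutation rate, S15_YRR pre-40S over mature 40S, is plotted for the 151 tested nucleotides against position in 18S (nt), with the standard error as a bar on the 26 called ones (red circles higher, blue squares lower, grey not called); the head is shaded. The highest points are C1632, A998 and C1195, and the lowest grey point is C4, with no mutation counted in any S15_YRR library.

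On the 3′ strand of the neck and the start of h44, all 5 tested nucleotides (C1632 to C1640) were called higher in S15_YRR. Over all tested nucleotides that share was 13.2%. This stretch, like the 5′ strand of the neck and the h31 stretch below, was chosen after its values were seen. All 5 reached the 2 times signal ratio in S15_YRR alone, so the filter favoured this direction. The count is therefore a description and supports nothing. C1632, at the junction of the neck and h44, had DMS mutation rates of 5.23%, 5.37% and 6.41% in S15_YRR replicates 1 to 3, against 0.644%, 0.747% and 0.809% in mature 40S replicates 1 to 3. The S15_YRR values were all far above the mature ones and above the untreated S15_YRR rates of 0.533% to 0.664%, whereas the mature values lay close to the untreated mature rates of 0.436% to 0.583%. In log2 terms C1632 was higher by 2.78 (SE 0.186, edgeR adjusted p = 4.32e-08). Reactivity, the DMS rate minus the replicate's own untreated rate on a scale where 1 is the mean of the strongly reacting nucleotides, was 1.36 ± 0.309 in S15_YRR and 0.0724 ± 0.00281 in mature 40S (SD, n = 3 each). By mean reactivity C1632 ranked 5 among the 151 nucleotides in S15_YRR and 119 in mature 40S.

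The 4 other called nucleotides of that stretch moved the same way by less. A1633, next to C1632, had 2.31%, 2.38% and 2.38% in S15_YRR and 0.469%, 1.44% and 1.02% in mature 40S, where replicate 1 was lowest (log2 change 1.11, SE 0.207, edgeR adjusted p = 0.00143). A1635 had 2.25%, 2.41% and 2.34% in S15_YRR and 0.676%, 0.812% and 0.825% in mature 40S (1.42, SE 0.169, edgeR adjusted p = 3.29e-05). Neither pair of groups overlapped. C1639, at the start of h44, had 2.25%, 2.43% and 3.13% in S15_YRR and 0.797%, 0.823% and 0.578% in mature 40S (1.66, SE 0.217, edgeR adjusted p = 7.21e-05). C1640 beside it was weaker in both groups, with 1.03%, 1.22% and 1.29% in S15_YRR and 0.352%, 0.389% and 0.438% in mature 40S (1.41, SE 0.23, edgeR adjusted p = 0.000508). All 5 kept their call when any 1 of the 6 replicates was left out. The neighbours C1634 and C1637 did not pass the signal filter, and their subtracted rates were 0.604 ± 0.222 and 0.371 ± 0.125 percentage points in S15_YRR against 0.632 ± 0.117 and 0.764 ± 0.187 in mature 40S (SD, n = 3 each).

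On the 5′ strand of the neck the 2 tested nucleotides, A1147 and C1148, were both higher in S15_YRR (13.2% over all tested nucleotides). This stretch was again chosen after its values were seen. Both nucleotides reached the 2 times signal ratio in S15_YRR alone, so here too the filter favoured this direction. A1147 had 1.59%, 1.48% and 1.66% in S15_YRR and 0.758%, 0.639% and 0.447% in mature 40S (log2 change 1.16, SE 0.25, edgeR adjusted p = 0.00378). C1148 had 1.94%, 1.77% and 1.83% in S15_YRR and 0.98%, 0.743% and 0.718% in mature 40S (0.99, SE 0.238, edgeR adjusted p = 0.00853). In mature 40S both rates were near the untreated background, so that the mean reactivities were 0.284 ± 0.0609 and 0.352 ± 0.0459 in S15_YRR but 0.0387 ± 0.0643 and 0.0265 ± 0.049 in mature 40S (SD, n = 3 each). The call at C1148 was lost without mature replicate 2 (0.75, adjusted p = 0.0531), and without mature replicate 1 its change was 1.31 (adjusted p = 0.000297). Just before the neck, A1139 was the most reactive tested nucleotide of both particles, with 22.9%, 26.3% and 25.9% in S15_YRR and 26.2%, 36% and 31.9% in mature 40S. Its rates overlapped, but the reactivities did not, at 6.57 ± 1.05 and 9.26 ± 0.602 (SD, n = 3 each). It was called lower in S15_YRR (-0.50, SE 0.137, edgeR adjusted p = 0.019), and that call was lost without mature replicate 1 (-0.47, adjusted p = 0.0589) and without mature replicate 3 (-0.45, adjusted p = 0.143), as well as without a library scale (-0.32, adjusted p = 0.245).

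**Figure D2:**
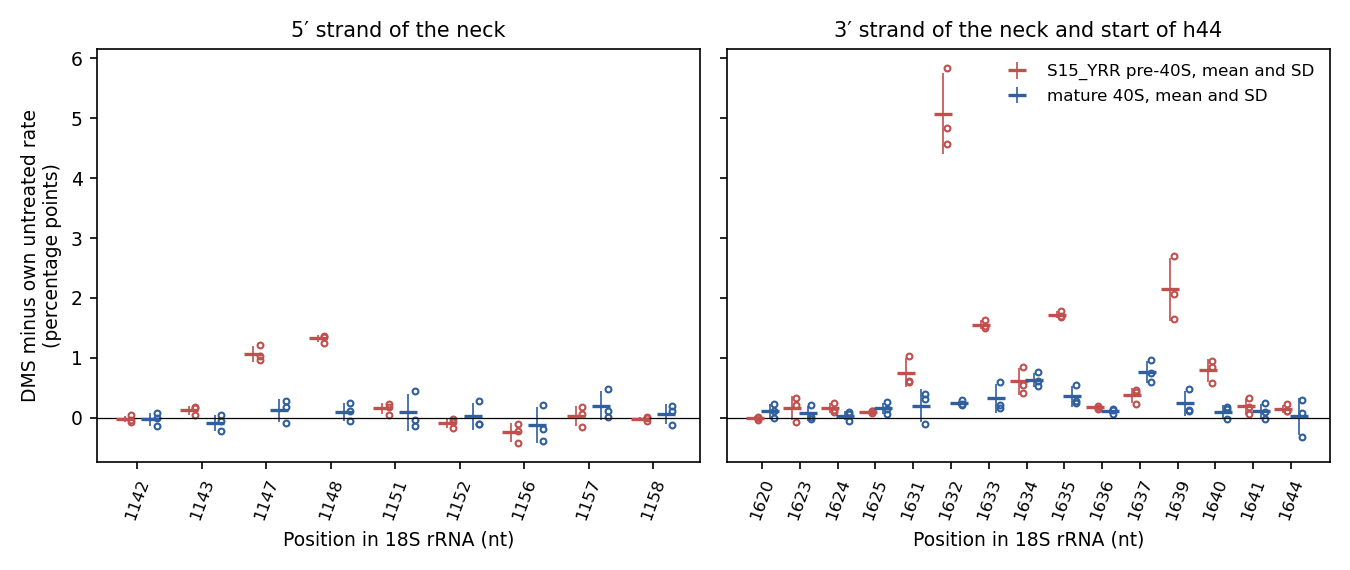
DMS rate minus own untreated rate (percentage points) is plotted at A and C with the depth minimum on the 5′ strand of the neck (left) and on its 3′ strand with the start of h44 (right); dashes are means with SD, open circles the 3 replicates, S15_YRR pre-40S in red and mature 40S in blue. S15_YRR stands above mature 40S at A1147 and C1148 and at C1632, A1633, A1635, C1639 and C1640, while at C1634 the groups overlap.

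U1191, the hypermodified base of h31, separated the particles without any DMS. A hypermodified base of this kind is known to disturb reverse transcription and so leaves mutations in untreated reads. The untreated mutation rate at U1191 was 4.06%, 4.45% and 2.76% in S15_YRR (mean 3.76% ± 0.888) and 76.8%, 81.8% and 83.3% in mature 40S (mean 80.6% ± 3.39; SD, n = 3 each). The groups were far apart, by -76.9 percentage points (exact two-sided permutation test, p = 0.1, the smallest that 3 against 3 allows). The DMS libraries gave 4.01% ± 1.06 in S15_YRR and 83.1% ± 0.69 in mature 40S. Effective depth at U1191 was 69% to 90.8% of the library median in S15_YRR and 15.8% to 20.3% in mature 40S. Effective depth at the site was thus also lower in the mature particle. Its lowest value was 912 reads at U1191 itself, 831 at C1190 and 799 at C1192.

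Untreated mutation rates near U1191 also differed. Among 1705 positions of 18S of all 4 bases, 2 were called in the untreated libraries (0.117%), both lower in S15_YRR: U1191 (log2 change -4.84, SE 0.601, edgeR adjusted p = 0.0193) and U1187 (-1.87, SE 0.237, edgeR adjusted p = 0.0193). An unadjusted p under 0.05 was reached by 120. Without mature replicate 1 there were 54 calls (3.17%), 25 higher (1.47%) and 29 lower (1.7%) in S15_YRR. Of the 20 tested positions from A1171 to C1190, 16 were then lower in S15_YRR, and of the 26 from C1192 to A1217, 7 were higher and 1 lower, against 29 calls among 1658 elsewhere; these windows were chosen after their values were seen. Leaving out any other single replicate left 0 untreated calls by edgeR, with 51 to 150 positions at an unadjusted p under 0.05.

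**Figure D3:**
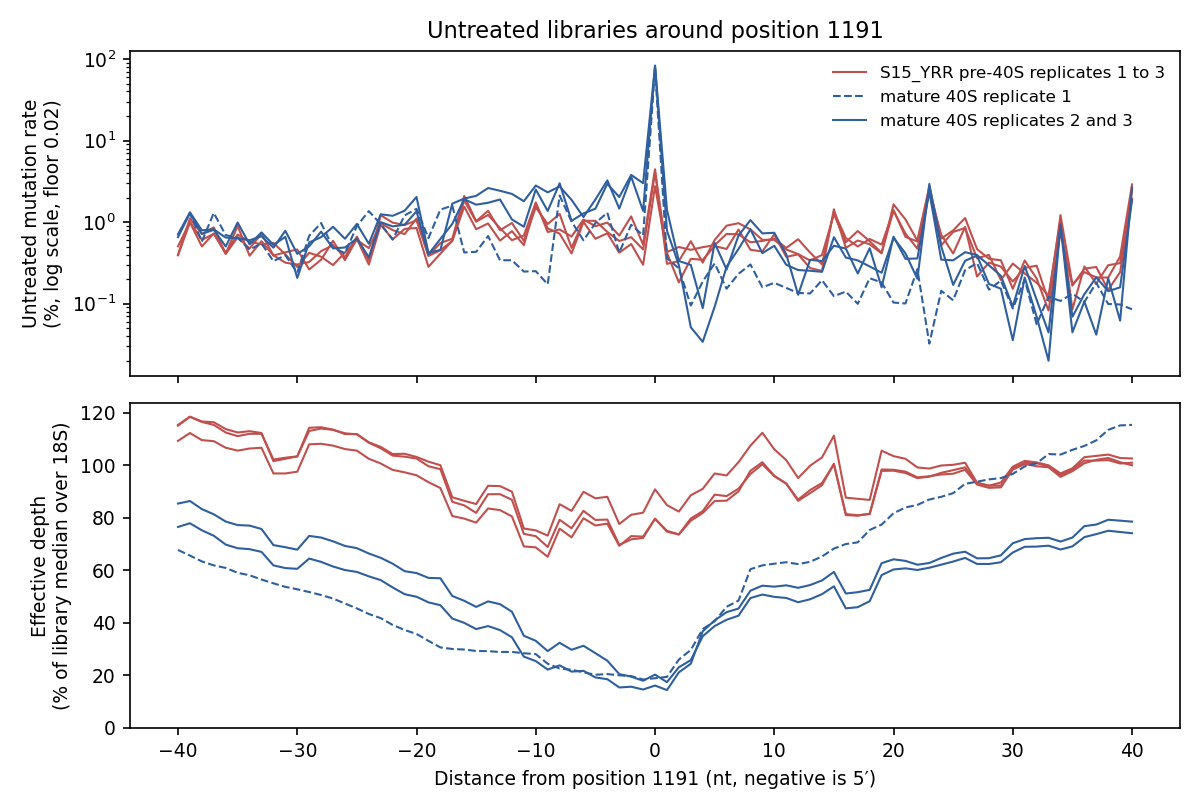
The upper panel shows the untreated mutation rate (%, log scale, values under 0.02 drawn at 0.02) and the lower panel the effective depth (% of the library's median over 18S) against distance from U1191 (nt), 1 line per library. At distance 0 the S15_YRR lines reach 2.76% to 4.45% and the mature 40S lines 76.8% to 83.3%, and the depth of the mature libraries dips to 16.1% to 20.3% there; mature replicate 1 (dashed) runs apart from replicates 2 and 3 on both sides.

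DMS rates on the 3′ side of U1191 were higher in S15_YRR at all 3 tested nucleotides of the h31 loop, A1193, C1195 and C1197. This stretch was also chosen after its values were seen (13.2% over all tested nucleotides). A1193 and C1195 reached the 2 times signal ratio in S15_YRR alone, so the filter favoured this direction there. A1193 had 1.11%, 1.13% and 0.871% in S15_YRR and 0.371%, 0.28% and 0.194% in mature 40S, where the untreated rates were 0.271%, 0.334% and 0.297% (log2 change 1.61, SE 0.421, edgeR adjusted p = 0.0134). C1195 had 0.887%, 1.1% and 0.966% in S15_YRR and 0.227%, 0.0666% and 0.182% in mature 40S (2.50, SE 0.48, edgeR adjusted p = 0.00151). C1197 had 1.47%, 1.62% and 1.41% in S15_YRR and 0.317%, 0.746% and 0.432% in mature 40S (1.39, SE 0.244, edgeR adjusted p = 0.000803). The groups did not overlap at any of the 3. The untreated rates moved in the same direction at C1195, with a mean of 0.386% in S15_YRR and 0.103% in mature 40S, and at C1197, with 0.697% and 0.233%. Set against their own untreated libraries, none of the 3 was called: the change of the DMS over untreated ratio was 1.77 at A1193 (adjusted p = 0.0769), 0.81 at C1195 (adjusted p = 0.713) and 0.12 at C1197 (adjusted p = 0.935, edgeR interaction). The call at A1193 in the DMS libraries was also lost without S15_YRR replicate 2 (adjusted p = 0.0506) and without mature replicate 2 (adjusted p = 0.0712). With no signal filter, 35 of all 811 nucleotides were called (4.32%). Of the 15 calls that the filter had left out, 11 lay between C1177 and A1230, and in all 15 the untreated rate moved in the same direction. Only 6 of the 15 were called in the untreated libraries without mature replicate 1. The part that the modification at U1191 and its local depth have in these differences was not tested.

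On the platform, the loop of h24, which lies at the mRNA channel below the P site, changed in both directions within a few nucleotides. A998 had 3.91%, 3.69% and 4.41% in S15_YRR and 0.431%, 0.705% and 0.497% in mature 40S. The S15_YRR values were far above their untreated rates of 0.317% to 0.495%, and the mature values sat near theirs of 0.258% to 0.465%. This made a log2 difference of 2.72 (SE 0.161, edgeR adjusted p = 1e-08), and the mean reactivity ranked 11 in S15_YRR and 130 in mature 40S. A998 reached the 2 times signal ratio in S15_YRR alone, so the filter favoured this direction. A1003 behaved the other way, with 1%, 0.745% and 0.639% in S15_YRR and 1.05%, 1.55% and 1.43% in mature 40S (-0.94, SE 0.162, edgeR adjusted p = 0.000754); its rates came close in the replicates numbered 1, and its reactivities of 0.138 ± 0.0555 and 0.295 ± 0.0196 did not overlap (SD, n = 3 each). A1001, between them, had 1.72%, 1.46% and 1.62% in S15_YRR and 1.14%, 1.72% and 1.47% in mature 40S and was not called (-0.02, edgeR adjusted p = 0.949). Both calls held in every leave-one-out fit. A little upstream, C931 was lower in S15_YRR, with 0.577%, 0.643% and 0.5% against 0.907%, 1.14% and 0.955% in mature 40S (-1.0, SE 0.222, edgeR adjusted p = 0.00454); without a library scale that call was lost (-0.80, adjusted p = 0.0803).

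In the head after h31, 2 called nucleotides were less reactive in S15_YRR. A1219 had 2.18%, 1.95% and 1.91% in S15_YRR and 2.15%, 3.7% and 2.71% in mature 40S (log2 change -0.67, SE 0.152, edgeR adjusted p = 0.00504). Without a library scale the call was lost (-0.50, adjusted p = 0.31). Its rates touched at mature replicate 1, whereas the reactivities were 0.438 ± 0.0132 and 0.784 ± 0.0526 (SD, n = 3 each). C1246, the most reactive C of mature 40S, had 5.56%, 5.37% and 5.13% in S15_YRR and 4.89%, 14.1% and 11.8% in mature 40S (-1.06, SE 0.211, edgeR adjusted p = 0.0022). Mature replicate 1 alone lay at the S15_YRR level before scaling; without it the change was -1.31 (adjusted p = 5.45e-07), and without S15_YRR replicate 2 it was -1.05 (adjusted p = 0.0506). A1217, close to A1219, was not called from the DMS libraries (-0.21, edgeR adjusted p = 0.621), and its untreated rate differed, at 0.95% ± 0.152 in S15_YRR and 0.341% ± 0.0855 in mature 40S (SD, n = 3 each).

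Elsewhere in the head, A1331 and A1600 were higher in S15_YRR. A1331 had 0.59%, 0.696% and 0.628% in S15_YRR and 0.172%, 0.179% and 0.0696% in mature 40S (log2 change 1.91, SE 0.39, edgeR adjusted p = 0.00235). A1600 had 2.58%, 2.37% and 2.06% in S15_YRR and 0.661%, 1.22% and 0.993% in mature 40S (1.11, SE 0.143, edgeR adjusted p = 6.11e-05). Both differed without overlap and in every leave-one-out fit, and those fits kept the same tested nucleotides. A1600, like C565 below, reached the 2 times signal ratio in S15_YRR alone, so the filter favoured this direction there. In the shoulder, C565 in helix 18, which forms part of the decoding center, had 0.991%, 1.2% and 1.45% in S15_YRR and 0.524%, 0.727% and 0.75% in mature 40S (0.71, SE 0.219, edgeR adjusted p = 0.0376); the call was lost without S15_YRR replicate 3 (0.46, adjusted p = 0.231) and without mature replicate 2 (0.61, adjusted p = 0.0705).

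**Figure D4:**
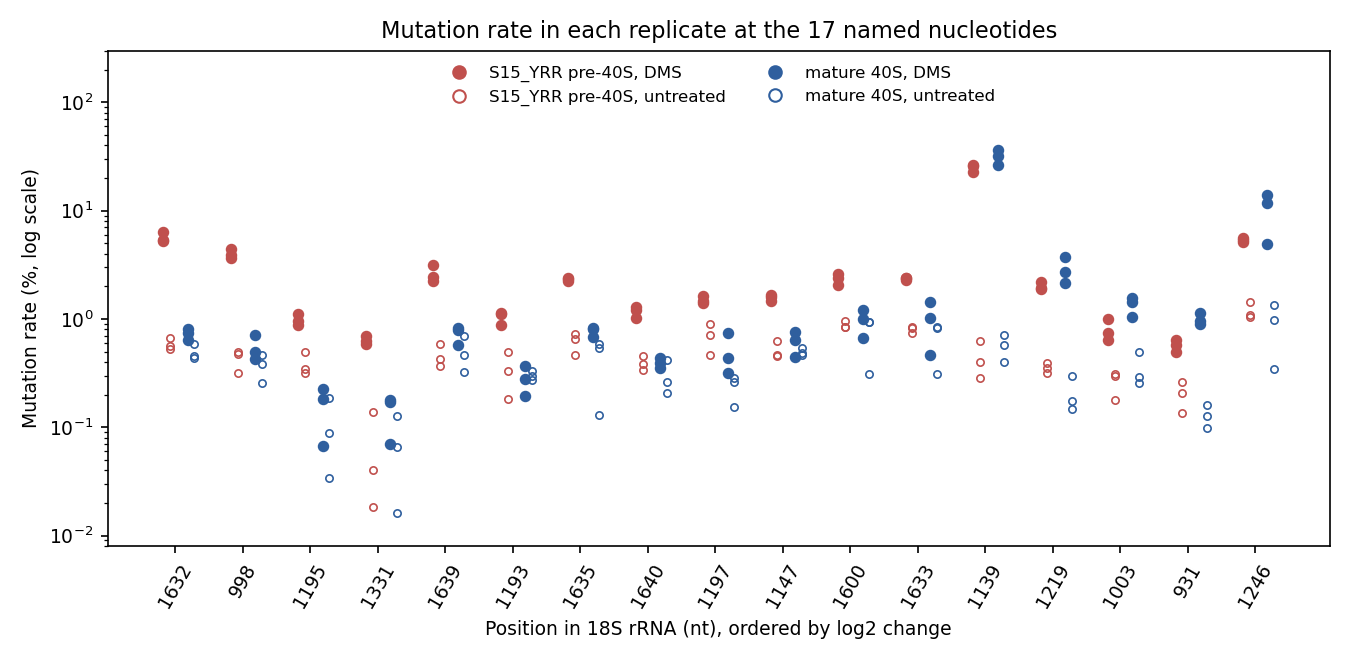
Mutation rates (%, log scale) in each replicate are plotted at the 17 nucleotides named by rule, ordered by log2 change; filled circles are DMS libraries, open circles untreated libraries, S15_YRR pre-40S in red and mature 40S in blue to its right. At C1632 and A998 the mature DMS points lie near the untreated points while the S15_YRR DMS points stand between 3.69% and 6.41%.

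The 7 called nucleotides not yet described lay outside both the naming rule and the lists, and are named because they complete the count. Higher in S15_YRR were A359 (log2 change 0.94, edgeR adjusted p = 0.000508), A929 (0.85, adjusted p = 0.0101), A1131 (0.84, adjusted p = 0.02), A1132 (0.71, adjusted p = 0.0462), A1421 (0.67, adjusted p = 0.0219) and A215 (0.60, adjusted p = 0.0274). Of these, A359 and A1131 reached the 2 times signal ratio in S15_YRR alone, so the filter favoured this direction there. A215 reached it in mature 40S alone. A359, in the 5′ domain, had 2.66%, 1.98% and 2.19% in S15_YRR and 0.727%, 1.39% and 1.07% in mature 40S, and it kept its call in every leave-one-out fit. The others were lost in at least 1: A929 without S15_YRR replicate 3 (adjusted p = 0.0558), A1131 without S15_YRR replicate 2 (0.137) and mature replicates 2 (0.0574) and 3 (0.0546), A1132 without any of 4 replicates (adjusted p up to 0.21), A1421 without S15_YRR replicate 2 (0.0624) or 3 (0.0835) or mature replicate 2 (0.0929), and A215 without S15_YRR replicate 1 (0.0942) or 3 (0.137) or mature replicate 3 (0.0819). C191 was lower in S15_YRR in the DMS libraries, with 0.985%, 0.922% and 0.858% against 1.75%, 2% and 1.46% in mature 40S (-1.08, SE 0.197, edgeR adjusted p = 0.00109). Its untreated rates differed more, at 0.372%, 0.242% and 0.132% in S15_YRR against 0.998%, 0.911% and 1.14% in mature 40S, and its reactivities overlapped, at 0.18 ± 0.0314 in S15_YRR and 0.213 ± 0.0989 in mature 40S (SD, n = 3 each).

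With the untreated libraries in the fit, 15 nucleotides had a changed DMS over untreated ratio (9.93%; edgeR interaction, adjusted p under 0.05). These included 12 of the 26: A359, C565, A998, A1147, C1148, A1219, C1246, A1600, C1632, A1633 and C1639 in the same direction, and C191 in the opposite one. The signal filter that chose the tested nucleotides used this same ratio. Of the 12, all but A1219 and C1246 reached the 2 times ratio in S15_YRR alone. The filter thus favoured a higher ratio in S15_YRR, and these calls are a description. C1632 and A998 changed little when the untreated libraries entered the fit, with changes of 2.73 (SE 0.257, adjusted p = 3.9e-05) and 2.72 (SE 0.308, adjusted p = 0.000149). The other 14 were not called there. Besides A1193, C1195 and C1197, they were A1635 (1.04, adjusted p = 0.15) and C1640 (1.20, adjusted p = 0.0564) of the neck, C931 (-1.32, adjusted p = 0.0769), A1003 (-0.34, adjusted p = 0.764) and A1331 (2.26, adjusted p = 0.135). The rest were A929 (0.18, adjusted p = 0.835), A1131 (0.66, adjusted p = 0.235), A1132 (0.22, adjusted p = 0.835) and A1421 (0.78, adjusted p = 0.129), with A215 (-0.39, adjusted p = 0.686) and A1139 (0.093, adjusted p = 0.935), whose direction turned. Without mature replicate 1, an alternative chosen after seeing the data, this fit gave 17 calls. A1635 (adjusted p = 0.00167) and C1640 (adjusted p = 0.0196), not called with all replicates, were among them.

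**Figure D5:**
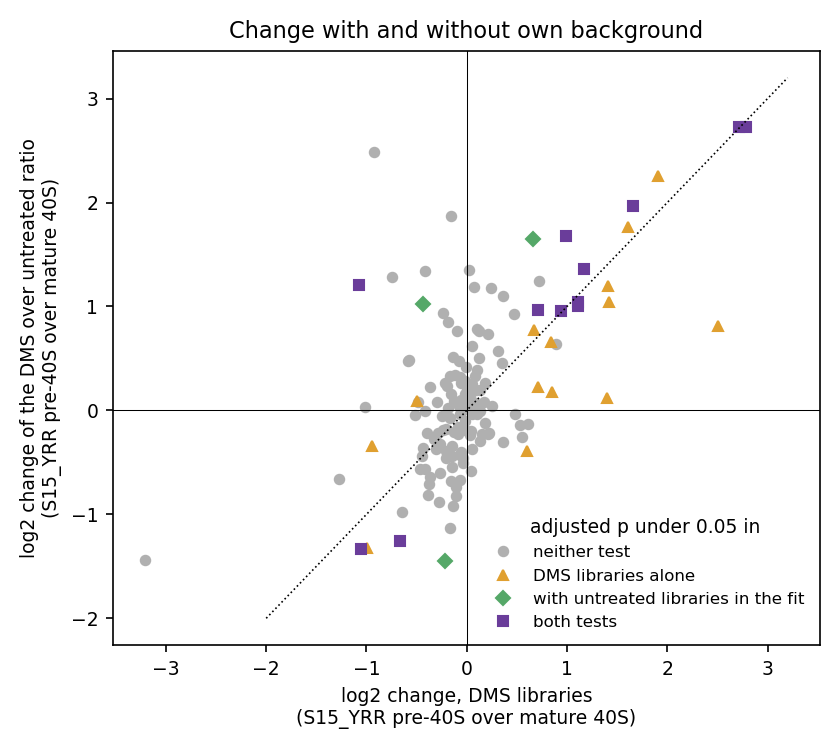
For the 151 tested nucleotides, the log2 change of the DMS over untreated ratio (vertical) is plotted against the log2 change in the DMS libraries alone (horizontal), S15_YRR pre-40S over mature 40S, with the dotted line marking equal values and the symbols showing which test gave an adjusted p under 0.05. C1632 and A998 lie together on the line at the upper right, and C191 is the purple square above 0 on the left.

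A list of 10 nucleotides that set mature 40S apart from wild-type precursors had been drawn from the same mature libraries, so its members' values are given as a description and support nothing. In S15_YRR against mature 40S, 5 were higher (A998, A1147, C1632, C1639 and C1640), 3 lower (A1003, A1219 and C1246) and 2 not called, A1217 and A1655; over all tested nucleotides 17.2% were called. A1655, in h44, had 1.4%, 1.31% and 1.42% in S15_YRR and 1.26%, 2.04% and 1.62% in mature 40S (-0.42, edgeR adjusted p = 0.113). A further list held 5 nucleotides at which pre-40S mutants had differed. It was also chosen with earlier results of these data known, so it too is a description and supports nothing. Of these 5, C1148, A1600 and C565 were higher (13.2% over all tested nucleotides). A978 was not called (0.09, edgeR adjusted p = 0.883) and C1159 did not pass the signal filter. Of the decoding-site adenines at the top of h44, which read the codon-anticodon pairing, A1756 had 1.22%, 1.28% and 1.24% in S15_YRR and 1.03%, 1.25% and 1.03% in mature 40S and was not called (-0.01, SE 0.196, edgeR adjusted p = 0.969). A1755 did not pass the signal filter, with mean DMS rates of 1.25% in S15_YRR and 0.983% in mature 40S.

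At 5 other naturally modified bases the untreated rates of the groups overlapped. C1280, which is acetylated, had 2.96% ± 0.899 in S15_YRR and 2.97% ± 1.1 in mature 40S (exact permutation p = 1). C1773, the other acetylated cytosine, had 3.91% ± 1.06 and 2.47% ± 0.804 (exact permutation p = 0.3), and G1575, methylated on its base, had 1.37% ± 0.113 and 1.38% ± 0.446 (exact permutation p = 1). The adenines A1781 and A1782, dimethylated by Dim1, had 7.14% ± 1.42 and 7.62% ± 0.466 in S15_YRR against 7.85% ± 1.27 and 6.96% ± 1.28 in mature 40S (exact permutation p = 0.7 and 0.5), at depths as low as 521 reads. All are means with SD over n = 3 replicates each, and with 3 against 3 the test cannot fall below 0.1.

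The head as a whole was described by 1 value per replicate, the mean log2 of reactivity plus 0.1 over its 36 tested nucleotides minus that over the 115 others. It was -0.0212, -0.0282 and 0.0077 in S15_YRR (mean -0.0139 ± 0.019) and -0.238, -0.287 and -0.41 in mature 40S (mean -0.312 ± 0.0888; SD, n = 3 each). The groups did not overlap, and the difference was 0.298 (exact two-sided permutation test, p = 0.1, the smallest possible). Its size rests on which nucleotides passed the signal filter: 8 of the 36 reached the 2 times ratio in S15_YRR alone and 1 in mature 40S alone, and with no signal filter the difference was 0.0924. It was 0.0962 with 0.5 added in place of 0.1 and 0.494 as a median over nucleotides, so its size was not settled. The direction was not shared by the whole head: 11 of its 36 tested nucleotides had reactivities above and 8 below the mature range, where over all 151 there were 21 above (13.9%) and 20 below (13.2%).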

How the data were processed

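Per the file headers, the authors deposited for each library a profile with whole-number counts of mutations, reads and effective depth at 2012 positions, and a mutation rate as a fraction; rates recomputed from the counts differed by at most 5e-07. A further deposited table holds the authors' normalized accessibility signal for each replicate, used only as an alternative. Aligner, mutation counter, versions and filters are not given in the sources used here. Mutation counts were tested with edgeR 4.0.16 (robust quasi-likelihood) in R 4.3.3, with the logarithm of effective depth times a median-of-ratios library scale as offset, over A and C with depth at least 1000 in 12 libraries whose mean DMS rate was 2 or more times that of the untreated libraries. The untreated fit took all bases whose mean rate, as a fraction, was 0.001 or more. Reactivity was the subtracted rate over the library scale, set to 1 at the mean of values from the 90th to the 98th percentile. Named were at most 12 nucleotides per direction (5 in untreated libraries) with the largest change among calls whose reactivities did not overlap and reached 0.1 in 1 group, plus fixed lists. The comparison and lists were chosen with earlier results of these data known. Single values were tested by exact permutation (numpy 2.4.6). Alternatives used DESeq2 1.42.0 and limma 3.58.1. The scripts were tested on simulated data.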

Additional observations from a re-analysis of the deposited data

Results flagged for a closer look

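At 15 nucleotides the ratio of the DMS over the untreated mutation rate differed between S15_YRR pre-40S and mature 40S (edgeR interaction, adjusted p under 0.05). This ratio also moves with the untreated rate, so it does not isolate the effect of DMS. At C191 the untreated means were 0.249% in S15_YRR and 1.02% in mature 40S. At A1217 they were 0.95% and 0.341%, while the DMS means were 1.92% and 2.01%. The log2 changes of that ratio, S15_YRR over mature 40S, were positive at C1632 (2.73), A998 (2.72), C1639 (1.97), C1148 (1.68), C1075 (1.65), A1147 (1.36), C191 (1.21), A1633 (1.05), A76 (1.02), A1600 (1.00), C565 (0.964) and A359 (0.957). They were negative at A1217 (-1.45), C1246 (-1.33) and A1219 (-1.25). Every nucleotide with a positive change except C1075 reached the 2 times signal ratio in S15_YRR alone. The signal filter, which used the same ratio, thus favoured positive changes.

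A76, C1075 and A1217 were not called from the DMS libraries alone. A76 had DMS rates of 1.02%, 0.709% and 1.25% in S15_YRR and 0.753%, 1.59% and 1.27% in mature 40S, with untreated means of 0.276% and 0.664%. C1075 had 2.34%, 3.1% and 2.84% in S15_YRR and 1.71%, 1.42% and 0.988% in mature 40S, without overlap (log2 change 0.66 in the DMS libraries, edgeR adjusted p = 0.138). Without mature replicate 1 the DMS change at C1075 was 1.15 (adjusted p = 0.00459), while its ratio was no longer called (adjusted p = 0.0635).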

How the results depend on the processing

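The DMS comparison kept between 20 and 26 of its 26 calls among nucleotides still tested under the other scales, tools and depth minima and without a signal filter. Fewer were called with a 5 times signal filter, which tested 41 nucleotides (5 calls), and with the untreated libraries in the fit (15 calls, or 17 without mature replicate 1, an alternative chosen after seeing the data). In those fits C191 reversed to 1.21 and 1.25 and A215 to -0.39 and -0.36, and A1139 to 0.093 with all replicates. Leaving out 1 replicate gave 21 to 29 DMS calls and 0 to 54 untreated calls. Untreated calls numbered 0 at a depth of 2000 (U1191 and U1187 were not tested), 0 without a library scale and 15 by DESeq2; the cause was not tested. With no library scale the median DMS change over the tested nucleotides shifted to 0.12 from -0.04. Without a signal filter 35 of 811 were called (4.32%), 15 of them otherwise not tested, 11 between C1177 and A1230, all with an untreated difference of the same sign. Of those 15, 6 were untreated calls without mature replicate 1. The replicate block gave 28 DMS calls, including all 26, and 0 untreated calls; same-numbered replicates deviated together at r = 0.0585, -0.0325 and 0.208, so the numbers are not taken as pairs. In the block the head difference stayed 0.298 (exact sign-flip p = 0.25, the smallest 3 pairs allow). Over its alternatives that difference lay between 0.0924 and 0.494. In the deposited signal 25 of the 26 had a value, all 25 in the same direction and 22 without overlap; C1639 was listed at 0 in all 6 columns. Depth near U1191 and at the 3′ end limits what can be said there.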
